A study of Mus musculus with 20 samples.

Results

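Aquaporins are the channel proteins that carry water, and in some cases glycerol, across cell membranes. The 9 aquaporin genes Aqp1, Aqp2, Aqp3, Aqp4, Aqp6, Aqp7, Aqp8, Aqp9 and Aqp11 were taken by gene name from a count table of 54532 genes and were followed through all 20 of its RNA-seq libraries. The libraries fell into 4 groups of 5: kidneys of mice labelled Lxrα-/-, kidneys of wild-type mice, livers of mice labelled Lxrα-/-, and livers of wild-type mice. All mice were male and on the C57BL/6 background. The series has 5 mice of each genotype, so that each library of a tissue stands for 1 animal. By these numbers each mouse gave both a kidney and a liver. Total RNA was taken from frozen tissue. No treatment was named, and the age of the mice and the design of the deleted allele were not stated in the labels. Nor did the labels state which kidney and which liver came from the same mouse. The receptor LXRα, the product of Nr1h3, responds to oxysterols and switches on genes of sterol and fatty acid metabolism. Libraries are called below by genotype, tissue and the number in their title (1 to 5 for labelled knockout mice, and 1, 3, 4, 5 and 6 for wild-type mice).

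Water crosses the nephron by a relay of aquaporins. Aqp1 serves the proximal tubule and the thin descending limb. Aqp2 enters the apical membrane of collecting duct principal cells under vasopressin, and Aqp3 and Aqp4 let the water out on the basolateral side. Aqp3, Aqp7 and Aqp9 also pass glycerol and are called aquaglyceroporins. In the liver, Aqp9 takes glycerol into hepatocytes for gluconeogenesis and Aqp8 is a channel of the bile canaliculus.

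The libraries held 23421561 to 35376342 counts each. Nr1h3, the gene named in the genotype label, was higher in the libraries labelled knockout than in wild type. Scaled to library size as CPM, it ranged over 79.6 to 129.6 CPM in labelled knockout kidneys against 38.2 to 43.9 CPM in wild-type kidneys, and over 177.8 to 239.6 CPM in labelled knockout livers against 104.7 to 150.5 CPM in wild-type livers. The edgeR quasi-likelihood test gave a log2 fold change of 1.27 (SE 0.16, adjusted p = 0.00209) in kidney and of 0.76 (SE 0.12, adjusted p = 0.00277) in liver. Counts of a whole gene do not show whether a part of its transcript was missing, so the genotype is written below as labelled. Among the kidneys, wild-type kidney 3 had 50.8% of its counts in mitochondrially encoded genes and wild-type kidney 1 had 7.21%, against 12.6% to 19.1% in the labelled knockout kidneys. Hepatocyte markers (7 genes, summed) were at 61594 to 100700 CPM in labelled knockout livers and 106016 to 145185 CPM in wild-type livers, and at most 500.0 CPM in any kidney. Proximal tubule markers (10 genes) were at 8722 to 15638 CPM in the kidneys and at most 9.37 CPM in any liver, so that the tissue labels matched their markers.

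Levels of different genes were compared per length, as counts scaled both to the library and to the gene length of the table (FPKM). In labelled knockout kidneys Aqp1 was the most abundant aquaporin at 270.5 ± 63.5 FPKM, followed by Aqp2 at 81.1 ± 26.8 FPKM and Aqp3 at 31.6 ± 5.06 FPKM (SD, n = 5). Wild-type kidneys had the same 3 genes on top, with Aqp1 at 149 ± 74.4 FPKM, Aqp2 at 84.3 ± 56.4 FPKM and Aqp3 at 26.3 ± 14.0 FPKM. In labelled knockout kidneys each of the 3 was clear of the next without overlap between libraries. In wild-type kidneys they were not, because wild-type kidney 3 was low for all of them and wild-type kidney 1 was high for Aqp2. A middle tier of 4 genes followed. In labelled knockout kidneys it held Aqp11 (7.11 ± 0.829 FPKM), Aqp7 (6.45 ± 0.815), Aqp6 (5.59 ± 1.55) and Aqp4 (2.38 ± 0.924), and neighbours in that order overlapped. In wild-type kidneys the order was Aqp6 (10.6 ± 6.04 FPKM), Aqp7 (7.57 ± 0.791), Aqp11 (5.09 ± 1.98) and Aqp4 (2.04 ± 1.90), again with overlap between neighbours. Aqp8 was the next gene down at 0.464 ± 0.133 FPKM in labelled knockout kidneys and 0.176 ± 0.0417 FPKM in wild-type kidneys. Aqp9 had 7 counts over the 5 labelled knockout kidneys and 11 over the 5 wild-type kidneys.

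The livers had another set on top. In labelled knockout livers Aqp9 led at 125 ± 16.5 FPKM, Aqp8 followed at 54.0 ± 18.8 FPKM and Aqp1 at 29.8 FPKM (18.1 to 44.3 FPKM). In wild-type livers Aqp8 stood at 137 ± 61.2 FPKM and Aqp9 at 123 ± 7.31 FPKM, with overlapping libraries, and Aqp1 at 30.2 FPKM (21.0 to 47.3 FPKM). Thus Aqp9 was clear of Aqp8 in the labelled knockout livers, where Aqp8 overlapped Aqp1, and it was not clear of Aqp8 in the wild-type livers. Aqp11 was at 4.62 ± 0.752 FPKM in labelled knockout livers and 6.40 ± 0.553 FPKM in wild-type livers. Aqp4, an orthodox water channel best known from astrocytes, was at 0.866 ± 0.392 FPKM in labelled knockout livers and 0.821 ± 0.260 FPKM in wild-type livers. Aqp7 was last among those above a few counts, at 0.0166 ± 0.0212 FPKM in labelled knockout livers and 0.471 ± 0.153 FPKM in wild-type livers. Aqp3 had 1 count over the labelled knockout livers and 5 over the wild-type livers, and Aqp2 and Aqp6 had none in any liver. The count of 0 over 5 livers allowed up to 0.0195 FPKM of Aqp2 and 0.0114 FPKM of Aqp6 in labelled knockout livers, from 3 counts over the group and for counting error only.

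**Figure D1:**
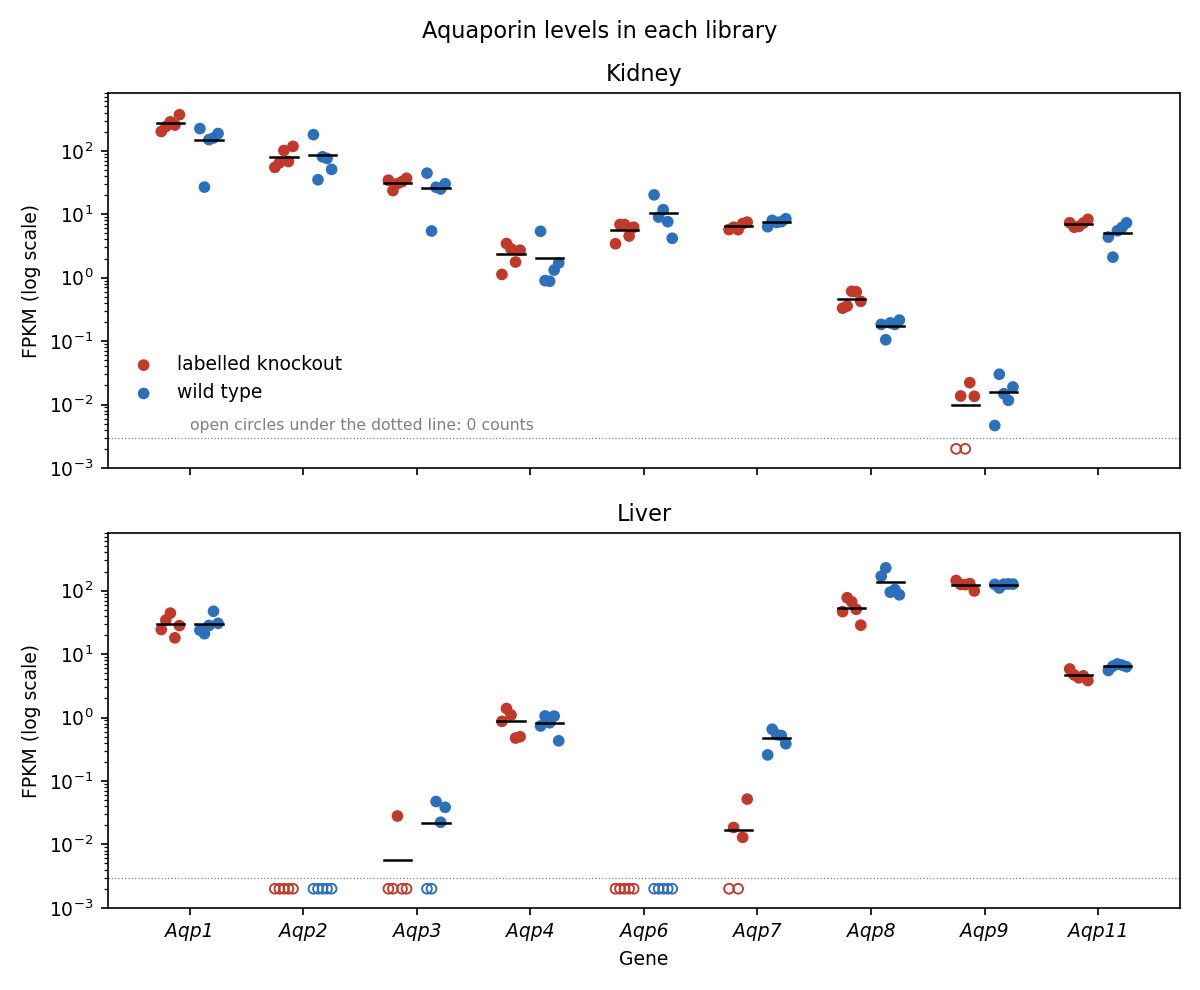
FPKM of the 9 aquaporins on a log axis in the kidney (upper panel) and the liver (lower panel), 1 point per library and a bar at the group mean, with labelled knockout left of wild type. Aqp1, Aqp2 and Aqp3 lead in kidney, Aqp8 and Aqp9 in liver, and Aqp7 in liver is at 0 to 0.0517 FPKM in labelled knockout libraries and at 0.258 to 0.655 FPKM in wild type.

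Outside the 9, the table held the aquaporin genes Mip, Aqp5, Aqp10-ps and Aqp12, and none had counts enough to be tested. Aqp5, known from glands and lung, had 13 counts over the labelled knockout kidneys and 20 over the wild-type kidneys, and 11 over the labelled knockout livers and 10 over the wild-type livers. The other 3 had at most 10 counts in any group of 5 libraries.

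The tissue pattern was tested between wild-type kidneys and wild-type livers, where 8 of the 9 aquaporins were called at an adjusted p under 0.05 by edgeR. Aqp2, Aqp3 and Aqp6 passed the count filter only through the kidneys, and Aqp8 and Aqp9 only through the livers. The calls of these genes are thus given as a description of their counts. Over all 16645 genes tested 53.8% were called, 29.6% higher and 24.2% lower in kidney, so a call here is common. The fit had no block for the mouse, though by the number of mice the kidneys and livers came from the same animals. Aqp1 was higher in kidney by 2.31 on the log2 scale (SE 0.44, adjusted p = 0.000500), although wild-type kidney 3 at 26.8 FPKM lay within the range of the livers (21.0 to 47.3 FPKM). Aqp3 was higher in kidney by 10.04 (SE 0.70, adjusted p = 3.67e-08) and Aqp7 by 4.01 (SE 0.24, adjusted p = 7.02e-09). Against the floor of 3 counts over the 5 livers, the mean level of Aqp2 was at least 4731-fold higher and that of Aqp6 at least 1012-fold higher in wild-type kidneys than in wild-type livers. Without wild-type kidney 1, the highest for both, the bounds were 3393-fold and 781-fold. In the other direction Aqp8 had a log2 fold change of -9.55 (SE 0.40, adjusted p = 2.71e-10) and Aqp9 of -12.96 (SE 0.36, adjusted p = 2.11e-11). Aqp11, which sits in the endoplasmic reticulum and whose loss in mice gives cystic kidneys, did not pass the test, at -0.33 (SE 0.26, adjusted p = 0.317).

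Aqp4 was the weakest of the 8 calls between the tissues, with a log2 fold change of 1.32 (SE 0.48, adjusted p = 0.0309) that rested on few libraries. It was at 5.38, 0.897, 0.879, 1.32 and 1.70 FPKM in wild-type kidneys 1, 3, 4, 5 and 6, against 0.736, 1.06, 0.828, 1.05 and 0.429 FPKM in the wild-type livers of the same numbers. Wild-type kidney 1 was thus over 3 times as high as any other, and kidneys 3 and 4 lay within the livers. Without wild-type kidney 1 the value was 0.56 (adjusted p = 0.136), and without wild-type kidneys 1 and 3 it was 0.67 (adjusted p = 0.0597). Leaving out wild-type liver 1, 4 or 6 also ended the call, with adjusted p = 0.0615, 0.0578 and 0.0729, and so did a fit with the mouse number as a replicate block, at 0.99 (adjusted p = 0.0866).

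In the liver, 3 of the 6 aquaporins tested were lower in labelled knockout than in wild-type mice and none was higher. Over all 14822 genes tested, 6.02% were called and 4.08% were called lower. The median log2 fold change of the 6 aquaporins was -0.25, beside 0.00 over all genes. The 3 genes were Aqp7, Aqp8 and Aqp11. Aqp7 passed the count filter only through the wild-type livers, so its place among the 6 was not independent of the difference. With Aqp7 left aside, the middle value of the others was that of Aqp1, a log2 fold change of -0.02. Aqp1, Aqp4 and Aqp9 were not called, and Aqp2, Aqp3 and Aqp6 had too few counts to be tested. DESeq2 called the same number, all lower.

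Aqp7 (ENSMUSG00000028427, mm10 chr4:41033074-41048139, minus strand) forms an aquaglyceroporin that lets glycerol out of fat cells and takes it back up in the straight part of the proximal tubule. It had 0, 1, 0, 1 and 3 counts in labelled knockout livers 1 to 5, against 15, 41, 35, 36 and 31 counts in wild-type livers 1, 3, 4, 5 and 6. Per length this was 0, 0.0185, 0, 0.0129 and 0.0517 FPKM in the labelled knockout livers and 0.258, 0.655, 0.537, 0.520 and 0.386 FPKM in the wild-type livers. Every labelled knockout liver was below every wild-type liver. Groups did not overlap, in either direction, for 6.95% of all genes tested in liver. The log2 fold change was -4.70 (SE 0.56, edgeR adjusted p = 0.000423), a 26.1-fold lower level that ranked 52 by p among all genes. At a minimum count of 10, Aqp7 entered the test only through the wild-type livers. Its call and rank are thus given as a description of these counts. The fold rests on 5 counts in all over the labelled knockout livers, but the call was kept in each of the 10 fits that left out 1 liver, with values of -5.58 to -4.40 and adjusted p between 0.000427 and 0.00230.

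Because Aqp7 is abundant in fat cells, adipocyte markers are given beside it. Their sum over 8 genes was 13.7 to 31.9 CPM in labelled knockout livers and 24.4 to 158.7 CPM in wild-type livers. Wild-type liver 5 held the 158.7 CPM, with Adipoq, the adipocyte hormone adiponectin, at 12.9 CPM. The other 4 wild-type livers were between 24.4 and 29.8 CPM and had no count of Adipoq. Their Aqp7 counts were 15, 41, 35 and 31. Of the 3 adipocyte markers with counts enough to be tested in liver, 0 were called by edgeR or DESeq2 and 2 had an unadjusted p under 0.05 (Cfd and Fabp4). All 3 had a negative edgeR log2 fold change, with Cfd at -4.60 (SE 1.51), Fabp4 at -0.86 (SE 0.37) and Cidec at -0.37 (SE 0.24). Cfd was at 0.0976 to 1.08 CPM in labelled knockout livers and 0.211 to 66.1 CPM in wild-type livers, with overlap. Its wild-type mean was 13.8 CPM (SD 29.3), and most of the wild-type total lay in a single liver. Ucp1 and Lep were at 0 in all labelled knockout livers. In wild-type livers each was seen in a single library, Ucp1 at 0.0903 CPM and Lep at 1.47 CPM. Without wild-type liver 5 the log2 fold change of Aqp7 was -4.67 (adjusted p = 0.00145). In bulk tissue, fewer cells of a type and less RNA per cell cannot be told apart. The part of fat cells in the Aqp7 difference was not tested.

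Aqp8 (ENSMUSG00000030762, chr7:123462291-123468004, plus strand), the canalicular channel, was at 46.7, 77.4, 66.7, 50.8 and 28.6 FPKM in labelled knockout livers 1 to 5. Wild-type livers 1, 3, 4, 5 and 6 had 170, 229, 94.7, 104 and 86.0 FPKM. The groups did not overlap, though labelled knockout liver 2 at 77.4 FPKM came near wild-type liver 6, and wild-type livers 1 and 3 stood above the other 3. Its log2 fold change was -1.35 (SE 0.31, edgeR adjusted p = 0.0218), a 2.55-fold lower level. The call was kept in 9 of 10 fits that left out 1 liver. Without labelled knockout liver 4 it was -1.32 (adjusted p = 0.0553).

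Aqp11 (ENSMUSG00000042797, chr7:97724006-97738289, minus strand) changed least of the 3. It was at 5.83, 4.68, 4.22, 4.54 and 3.83 FPKM in labelled knockout livers 1 to 5, against 5.52, 6.46, 6.98, 6.71 and 6.32 FPKM in wild-type livers 1, 3, 4, 5 and 6. Labelled knockout liver 1 was above wild-type liver 1, and otherwise the groups were apart. The log2 fold change was -0.48 (SE 0.12, edgeR adjusted p = 0.0374). This call depended on the libraries: it was kept without wild-type liver 1 or labelled knockout liver 1 and lost in the other 8 fits that left out 1 liver, with values of -0.57 to -0.41 and adjusted p up to 0.1003. Beside Aqp8 and Aqp11, which hepatocytes express, the hepatocyte marker sum given above was lower in the labelled knockout livers without overlap, and Alb, serum albumin, made up most of it. Alb averaged 55742 CPM in labelled knockout livers and 93039 CPM in wild-type livers, with a log2 fold change of -0.75 (SE 0.20, edgeR adjusted p = 0.0435), and was the 1 gene of the 7 called. Serpina1c and Tat had positive values and the other 4 genes negative ones, none of them called. Of the pericentral hepatocyte markers 5 of 5 had a positive log2 fold change, with Oat, ornithine aminotransferase, called higher at 0.92 (SE 0.23, adjusted p = 0.0323), and of the periportal markers 4 of 4 were positive with 0 called by edgeR or DESeq2 and 0 at an unadjusted p under 0.05. The part of these differences in the result was not tested.

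**Figure D2:**
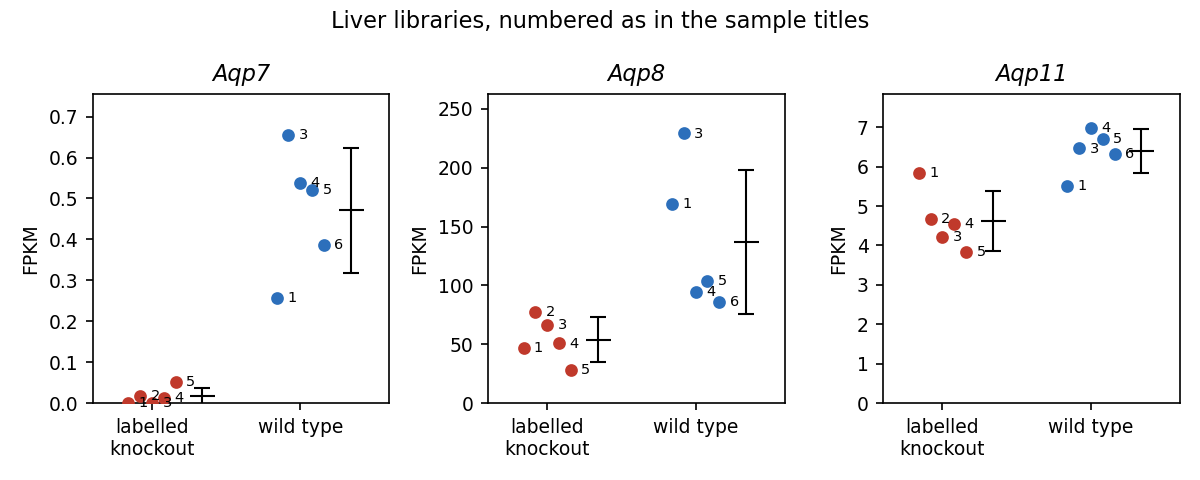
FPKM of Aqp7, Aqp8 and Aqp11 in the liver libraries, with the number in each library's title beside its point, labelled knockout left of wild type, and the mean ± SD (n = 5) to the right of each group. Aqp7 and Aqp8 do not overlap between the groups, and labelled knockout liver 1 at 5.83 FPKM of Aqp11 is above wild-type liver 1 at 5.52 FPKM.

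The promoters of the 3 genes that fell in liver are shown because LXRα acts by binding DNA, as a pair with RXR, at direct repeats of a short half-site. RefSeq (GRCm38.p6) gave a start site for 8 of the 9 aquaporins. The 250 bases before the start are printed 5′ to 3′ on the strand of the gene, with the half-site AGGTCA, read on either strand and thus also as TGACCT, in capitals.
Aqp7, chr4:41048137-41048386, minus strand: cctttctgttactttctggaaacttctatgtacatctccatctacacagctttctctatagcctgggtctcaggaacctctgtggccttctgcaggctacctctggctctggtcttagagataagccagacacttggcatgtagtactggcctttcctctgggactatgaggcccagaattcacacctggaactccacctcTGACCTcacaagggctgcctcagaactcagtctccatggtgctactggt
Aqp8, chr7:123462044-123462293, plus strand: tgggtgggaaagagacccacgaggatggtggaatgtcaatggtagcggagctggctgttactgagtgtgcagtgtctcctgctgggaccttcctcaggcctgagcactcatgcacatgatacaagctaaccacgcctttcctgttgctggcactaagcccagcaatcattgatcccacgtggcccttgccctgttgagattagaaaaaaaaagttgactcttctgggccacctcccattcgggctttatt
Aqp11, chr7:97738248-97738497, minus strand: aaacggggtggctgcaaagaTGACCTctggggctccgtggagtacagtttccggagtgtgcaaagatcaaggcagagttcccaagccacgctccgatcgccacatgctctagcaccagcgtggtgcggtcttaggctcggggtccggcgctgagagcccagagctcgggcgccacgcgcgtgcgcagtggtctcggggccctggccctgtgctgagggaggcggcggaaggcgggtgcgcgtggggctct

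A single half-site stood at -49 to -44 from the start in the Aqp7 window and at -230 to -225 in the Aqp11 window, both on the strand opposite to the gene, and the Aqp8 window held none. A second annotated start of Aqp7 had 2, at -223 to -218, which is the same site, and at -101 to -96. Single half-sites are common: 14.0% of the 32851 RefSeq promoter windows of this length had at least 1. The direct repeat spaced by 4 bases, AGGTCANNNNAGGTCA, was in 0.0152% of all windows, and the repeat spaced by 1 base, AGGTCANAGGTCA, in 0.0335%. Each repeat contains the half-site, both strands were read, and neither was in a window of the 8 aquaporins with a start site. Aqp4 had no window. Those of Aqp9 were set by starts 5393 and 6049 bases from the gene start of the count table. A match describes letters in a window and says nothing of binding.

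The other 3 aquaporins tested in liver did not pass. Aqp9, the glycerol channel of hepatocytes, was at 145, 125, 125, 129 and 99.0 FPKM in labelled knockout livers and 126, 110, 127, 128 and 127 FPKM in wild-type livers, with a log2 fold change of 0.00 (SE 0.12, adjusted p = 0.987). Its gene span overlaps those of the antisense gene Gm32511 and the pseudogene Gm47268, and the use of strand in counting was not given. Whether reads of these genes entered the Aqp9 count was not tested. Aqp1, carried in liver by bile duct and endothelial cells, was at 24.4, 34.3, 44.3, 18.1 and 28.1 FPKM in labelled knockout livers and 23.8, 21.0, 28.3, 47.3 and 30.6 FPKM in wild-type livers, with a log2 fold change of -0.02 (SE 0.25, adjusted p = 0.971). Bile duct markers (7 genes) summed to 51.0 to 150 CPM in labelled knockout livers and 79.2 to 175 CPM in wild-type livers, and endothelial markers (9 genes) to 118 to 224 CPM against 188 to 256 CPM. Of the 6 bile duct genes tested 1 was called, Sox9, a transcription factor, higher at a mean of 4.18 CPM in labelled knockout livers and 1.79 CPM in wild-type livers (edgeR adjusted p = 0.0459). Of the 9 endothelial genes 1 was called, Cdh5, the endothelial cadherin, lower with a log2 fold change of -0.90 (SE 0.23, edgeR adjusted p = 0.0340). The part of these differences in the Aqp1 value was not tested. Aqp4 had a log2 fold change of 0.07 (SE 0.33, adjusted p = 0.931). The libraries of the 2 genotypes overlapped for all 3 genes.

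The genes whose profile over the 10 livers was most like that of each called aquaporin were found by the root mean square difference of gene-centred log2 CPM among 12810 protein-coding genes. The centring was over both genotypes, so a near gene shares the difference between them by selection. The directions below are therefore a description and no further result. Nearest to Aqp7 was Pltp, which encodes phospholipid transfer protein and is a known LXR target, at a difference of 0.484, followed by Pnpla5, a patatin-like lipase, at 0.581, and Defb1, a defensin, at 0.649. All 3 were lower in labelled knockout livers, Pltp by a log2 fold change of -3.43 (edgeR adjusted p = 2.57e-05). Nearest to Aqp8 were C330021F23Rik at 0.254, Fabp2, a fatty acid-binding protein, at 0.333 and Lrp2bp at 0.347, all 3 of them called lower. Nearest to Aqp11 were Pdk2, a kinase of pyruvate dehydrogenase, at 0.0859, Aga, a lysosomal enzyme, at 0.105 and Adss, an enzyme of AMP synthesis, at 0.108, and none of these 3 was called itself.

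In the kidney none of the 8 aquaporins tested was called between labelled knockout and wild-type mice by edgeR, 2 had an unadjusted p under 0.05 (Aqp6 and Aqp8), and DESeq2 called 1 (Aqp8). Over all 16500 genes tested in kidney 2.26% were called. The median log2 fold change of the 8 was 0.22, beside -0.07 over all genes. Aqp9 had too few counts to be tested. Wild-type kidneys 1 and 3, with the lowest and the highest mitochondrial share, stood apart for most of the 8 genes, and each value is therefore also given without both, from 5 labelled knockout and 3 wild-type kidneys. None of the 8 was called without them.

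Aqp8 came nearest to a call. It had 19, 20, 32, 31 and 24 counts in labelled knockout kidneys 1 to 5 and 15, 4, 10, 12 and 13 counts in wild-type kidneys 1, 3, 4, 5 and 6. These counts correspond to 0.330, 0.357, 0.609, 0.599 and 0.423 FPKM in labelled knockout kidneys and 0.183, 0.105, 0.193, 0.183 and 0.214 FPKM in wild-type kidneys. All labelled knockout kidneys were above all wild-type kidneys. Groups did not overlap, in either direction, for 6.92% of all genes tested in kidney. The log2 fold change was 1.34 (SE 0.33, edgeR adjusted p = 0.0507). Other settings moved it across the threshold: the adjusted p was 0.00916 with DESeq2, 0.0321 with limma on the deposited log2 table, and 0.0439 without wild-type kidney 6. Without wild-type kidneys 1 and 3 the fold change was 1.19 (edgeR adjusted p = 0.0794).

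Aqp1 (ENSMUSG00000004655, chr6:55336432-55348555, plus strand), the constitutive water channel of the proximal tubule, was at 201, 241, 286, 254 and 370 FPKM in labelled knockout kidneys 1 to 5. In wild-type kidneys 1, 3, 4, 5 and 6 it was at 224, 26.8, 150, 160 and 187 FPKM. Wild-type kidney 3 was far below all other kidneys, wild-type kidney 1 was above labelled knockout kidney 1, and the remaining wild-type kidneys were below all labelled knockout kidneys. The log2 fold change was 0.83 (SE 0.41, edgeR adjusted p = 0.274), and 0.68 (SE 0.18, adjusted p = 0.0613) without wild-type kidneys 1 and 3.

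The collecting duct channels showed no call and wide scatter in wild type. Aqp2 (ENSMUSG00000023013, chr15:99579055-99584547, plus strand), the vasopressin-regulated channel, was at 54.8, 64.5, 101, 67.6 and 117 FPKM in labelled knockout kidneys and 180, 35.0, 80.3, 75.7 and 50.9 FPKM in wild-type kidneys, with a log2 fold change of -0.08 (SE 0.37, adjusted p = 0.909). Its sign turned to 0.40 (adjusted p = 0.479) without wild-type kidney 1. Aqp3, the basolateral exit for water and glycerol, was at 34.4, 23.6, 30.3, 32.6 and 36.9 FPKM in labelled knockout kidneys and 44.4, 5.44, 26.6, 25.0 and 30.1 FPKM in wild-type kidneys, with a log2 fold change of 0.24 (SE 0.37, adjusted p = 0.714). Aqp4 was at 1.12, 3.44, 2.85, 1.76 and 2.71 FPKM in labelled knockout kidneys, against the 0.879 to 5.38 FPKM of the wild-type kidneys given above, and its log2 fold change was 0.19 (SE 0.47, adjusted p = 0.821). In all 3 genes the highest kidney of all 10 was wild-type kidney 1. Without wild-type kidneys 1 and 3 the log2 fold changes were 0.20 for Aqp2, 0.18 for Aqp3 and 0.83 for Aqp4 (adjusted p = 0.679, 0.520 and 0.162).

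Aqp6 (ENSMUSG00000043144, chr15:99601400-99605477, plus strand) is a vesicle channel of intercalated cells that conducts anions, encoded near Aqp2 on chromosome 15. It was at 3.42, 6.88, 6.87, 4.53 and 6.24 FPKM in labelled knockout kidneys and 20.2, 8.998, 11.8, 7.63 and 4.18 FPKM in wild-type kidneys. Wild-type kidney 6 lay within the labelled knockout range and the other 4 wild-type kidneys lay above it. The log2 fold change was -0.95 (SE 0.34, edgeR adjusted p = 0.159). Without wild-type kidney 6 it was -1.15 and passed the threshold (adjusted p = 0.0369), and without wild-type kidneys 1 and 3 it was -0.53 (adjusted p = 0.333).

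Neither Aqp7 nor Aqp11, both called in liver, was called in kidney. Aqp7 was at 5.73, 6.23, 5.70, 7.11 and 7.49 FPKM in labelled knockout kidneys and 6.35, 7.99, 7.42, 7.64 and 8.47 FPKM in wild-type kidneys, with a log2 fold change of -0.26 (SE 0.15, edgeR adjusted p = 0.323). Aqp11 was at 7.35, 6.24, 6.41, 7.24 and 8.30 FPKM in labelled knockout kidneys and 4.36, 2.10, 5.49, 6.18 and 7.31 FPKM in wild-type kidneys, with a log2 fold change of 0.46 (SE 0.26, adjusted p = 0.333). The genotypes overlapped for both genes. Without wild-type kidneys 1 and 3 the log2 fold change was -0.31 for Aqp7 (adjusted p = 0.1995) and 0.14 for Aqp11 (adjusted p = 0.598).

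**Figure D3:**
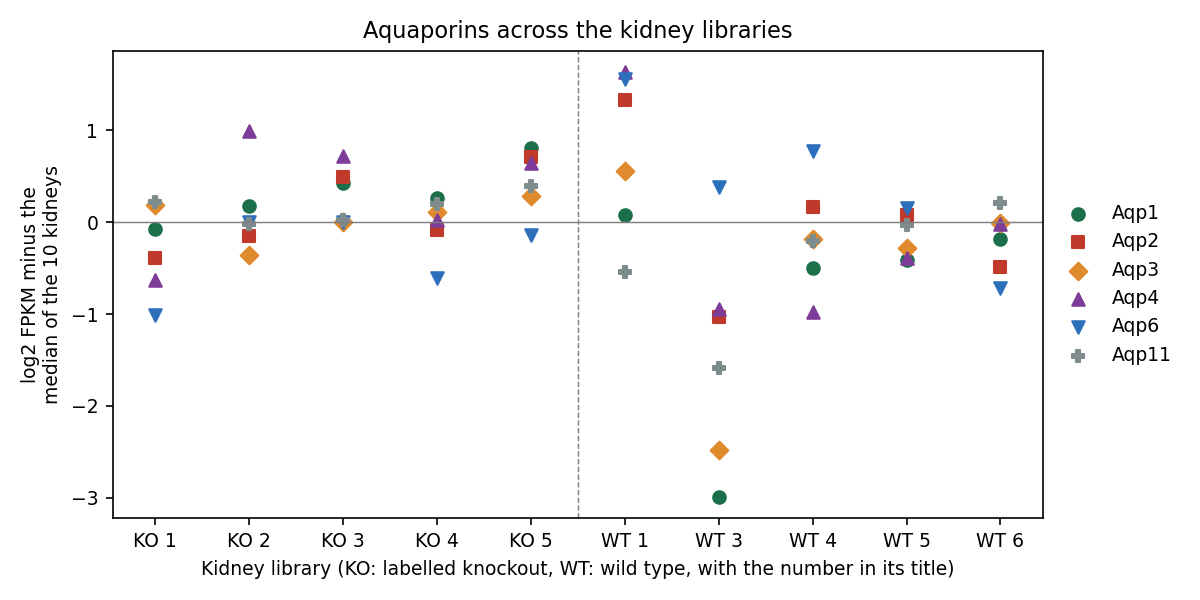
The aquaporins Aqp1, Aqp2, Aqp3, Aqp4, Aqp6 and Aqp11 across the 10 kidneys, as log2 FPKM minus the median of the 10 kidneys, with the labelled knockout kidneys left of the dashed line and the wild-type kidneys right of it. Wild-type kidney 1 is highest for Aqp2, Aqp3, Aqp4 and Aqp6, and wild-type kidney 3 is lowest for Aqp1, Aqp2, Aqp3 and Aqp11.

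Because aquaporins of the kidney sit in particular segments, the markers of those segments are given beside the kidney results. The proximal tubule sum was 12675 to 15638 CPM in labelled knockout kidneys and 8722 to 11934 CPM in wild-type kidneys, without overlap and with wild-type kidney 3 lowest. Of its 10 genes 9 had a positive log2 fold change, and Slc22a6, an uptake transporter for organic anions, was the 1 called, at 1.11 (SE 0.24, edgeR adjusted p = 0.0332). The principal cell sum (7 genes) was 124 to 202 CPM in labelled knockout kidneys and 162 to 284 CPM in wild-type kidneys. The intercalated cell sum (8 genes) was 331 to 441 CPM in labelled knockout kidneys and 431 to 562 CPM in wild-type kidneys, and that of the thick ascending limb (5 genes) was 776 to 2474 CPM against 1434 to 3001 CPM. No gene of these last 3 lists was called by edgeR, 4 had an unadjusted p under 0.05, and DESeq2 called 1, lower, in the thick limb. The endothelial sum (9 genes) was 130 to 273 CPM in labelled knockout kidneys and 270.0 to 389 CPM in wild-type kidneys, with Cdh5 called lower at -1.08 (SE 0.25, adjusted p = 0.0402). The part of the endothelial and thick limb markers in the aquaporin values was not tested.

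Each aquaporin was then set against the summed markers of the segment chosen for it within the same library. The proximal tubule was an assumed place for Aqp8 that no value here checked. The log2 ratios were compared by an exact two-sided permutation test (n = 5 each, 8 tests, smallest possible p = 0.00794). Aqp7 per proximal tubule marker was lower in labelled knockout kidneys by a difference of -0.66 in the log2 ratio (exact permutation p = 0.00794, adjusted over the 8 tests 0.0317). The ratio lay between -9.92 and -9.44 in labelled knockout kidneys and between -9.33 and -8.59 in wild-type kidneys. Aqp8 per proximal tubule marker was higher by 0.97 (exact permutation p = 0.00794, adjusted 0.0317), with ratios of -14.87 to -13.84 in labelled knockout kidneys and -15.68 to -15.05 in wild-type kidneys. Neither pair of ranges overlapped. The proximal tubule sum was itself higher in labelled knockout kidneys without overlap, at 12675 to 15638 CPM against 8722 to 11934 CPM. Aqp7 alone overlapped between the genotypes, at -0.26 (edgeR adjusted p = 0.323), and Aqp8 alone did not, at 1.34 (edgeR adjusted p = 0.0507). A log2 ratio falls as the sum under it rises, so the -0.66 of Aqp7 holds the rise of the marker sum as well as the change of Aqp7. The call is of the ratio and not of Aqp7. For Aqp8 the same rise made the ratio difference smaller. The share of all genes that would pass the same ratio was not computed.

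The other 6 ratios did not pass. Aqp1 per proximal tubule marker differed by 0.70 (exact permutation p = 0.135) and Aqp11 by 0.17 (exact permutation p = 0.619). Per principal cell marker, Aqp2 differed by 0.46 (exact permutation p = 0.151), Aqp3 by 0.87 (exact permutation p = 0.0635) and Aqp4 by 0.84 (exact permutation p = 0.111). Aqp6 per intercalated cell marker differed by -0.54 (exact permutation p = 0.317). Their adjusted p ran from 0.169 to 0.619. The calls of Aqp7 and Aqp8 were kept without wild-type kidney 1 and without wild-type kidney 6, and both were lost when any of the other 8 kidneys was left out (exact permutation, adjusted p = 0.0635). Ranges that did not overlap over all kidneys cannot overlap with 1 left out. Fewer relabellings make the exact p move in larger steps, so these losses do not point to particular kidneys. Both calls were also lost without wild-type kidneys 1 and 3, where the steps are larger still. The values were then -0.66 for Aqp7 and 0.82 for Aqp8 (exact permutation, adjusted p = 0.0952 and 0.107). Without wild-type kidney 1 Aqp2 and Aqp4 also passed, at 0.67 (exact permutation, adjusted p = 0.0317) and 1.17 (exact permutation, adjusted p = 0.0476), and without wild-type kidney 6 Aqp3 passed, at 1.08 (exact permutation, adjusted p = 0.0423).

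Whether the genotype effect depended on the tissue was tested as the difference of the 2 effects in 1 fit of all 20 libraries. That fit, too, had no block for the mouse. Of the 5 aquaporins that passed the count filter in each tissue alone, 2 differed, Aqp7 and Aqp8, both with the higher effect in kidney. Over all 17606 genes tested 1.51% differed, and 0.937% in that direction. Those genes passed a filter over the 20 libraries and include genes without counts in 1 tissue, so the 2 shares are over unlike sets. For Aqp7 the kidney effect exceeded the liver effect by 4.50 (SE 0.49, edgeR adjusted p = 1.89e-05), the log2 fold changes being -0.26 in kidney and -4.70 in liver. For Aqp8 the difference was 2.69 (SE 0.46, adjusted p = 0.00225), with 1.34 in kidney and -1.35 in liver. Both calls were kept in 20 of 20 fits that left out 1 library. In liver Aqp7 passed the count filter only through the wild-type libraries, as given above. Aqp11 had opposite signs, 0.46 in kidney and -0.48 in liver, and its difference of 0.95 (SE 0.30, adjusted p = 0.134) passed in 1 of those fits, without wild-type kidney 6, at 1.12 (adjusted p = 0.0414). Aqp1 at 0.87 (SE 0.51, adjusted p = 0.461) and Aqp4 at 0.14 (SE 0.62, adjusted p = 0.953) did not differ beyond their error.

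**Figure D4:**
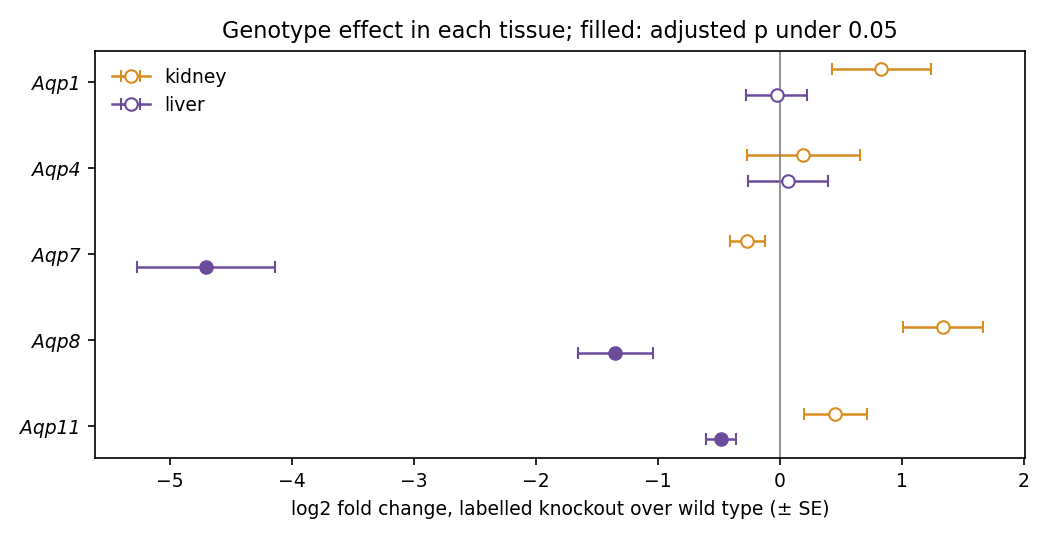
Log2 fold change of labelled knockout over wild type (± SE) in kidney and in liver for the 5 aquaporins tested in both tissues, filled where the edgeR adjusted p was under 0.05. Aqp7 is at -0.26 in kidney and -4.70 in liver, Aqp8 at 1.34 and -1.35, and Aqp11 at 0.46 and -0.48.

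Genes around the aquaporins were taken from 3 lists. Glycerol handling (12 genes, all tested) covers the lipases that free glycerol and the enzymes that use it, among them Gk, glycerol kinase. In liver 2 of the 12 were called lower and none higher, with a list median of -0.36. Mgll, which splits monoglycerides to glycerol and fatty acid, was at 112.5 to 125.8 CPM in labelled knockout livers and 153.6 to 205.2 CPM in wild-type livers, a log2 fold change of -0.58 (SE 0.10, edgeR adjusted p = 0.00516). Gpd2, the mitochondrial glycerol-3-phosphate dehydrogenase, was at 19.3 to 32.1 CPM in labelled knockout livers and 27.3 to 50.4 CPM in wild-type livers, at -0.71 (SE 0.18, adjusted p = 0.0334). The next in order of p, the triglyceride lipase Pnpla2 at -0.37 (adjusted p = 0.0822) and the acyltransferase Gpam at -0.53 (adjusted p = 0.164), did not pass. In kidney 0 of the 12 were called by edgeR or DESeq2, 2 had an unadjusted p under 0.05, and the list median was 0.17. Gpd2 was the 1 gene of the list whose effect differed between the tissues, by 1.37 (SE 0.34, adjusted p = 0.0449).

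The list for vasopressin signalling and water reabsorption had 12 genes. In kidney 11 were tested, 0 were called by edgeR or DESeq2 and 0 had an unadjusted p under 0.05, and the list median was -0.14. The lowest p belonged to the adenylyl cyclase Adcy3 at -0.81 (SE 0.40, adjusted p = 0.275). Avpr2, the vasopressin receptor of principal cells, had too few counts to be tested, at 0.0564 to 0.361 CPM in labelled knockout kidneys and 0.0918 to 1.45 CPM in wild-type kidneys. In liver 10 were tested and 1 was called, higher, the hepatic vasopressin receptor Avpr1a. It was at 29.7 to 56.4 CPM in labelled knockout livers and 17.8 to 32.5 CPM in wild-type livers, with a log2 fold change of 0.78 (SE 0.21, edgeR adjusted p = 0.0475).

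The tonicity response (7 genes, all tested in both tissues) holds the genes by which cells of the hypertonic medulla gather osmolytes. In kidney 0 were called by edgeR or DESeq2 and 2 had an unadjusted p under 0.05, Slc5a3, the myo-inositol transporter, at -0.65 (SE 0.21, adjusted p = 0.129) and Hspa4l, a heat shock protein, at 0.52 (SE 0.22, adjusted p = 0.223). In liver edgeR called 1 and DESeq2 called 2, all lower. The gene called by edgeR was Akr1b3, aldose reductase, at 6.35 to 9.85 CPM in labelled knockout livers and 10.97 to 17.9 CPM in wild-type livers, with a log2 fold change of -0.70 (SE 0.16, edgeR adjusted p = 0.0218).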

How the data were processed

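Libraries were made from total RNA of kidney and liver with an Illumina kit, per the labels' protocols. The submitters' processing notes name HISAT2 2.0.5, StringTie, DESeq2 1.16.1 and the build mm10, with no roles, and the use of strand was not given in the sources used here. The authors deposited whole-number counts per gene for 20 libraries, used for all results but 1 alternative. They also deposited a table of log2 FPKM for 15454 genes, used as that alternative, which holds Aqp1, Aqp4, Aqp8 and Aqp11 of the 9.

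Counts were tested with edgeR 4.0.16 (R 4.3.3; filterByExpr with a minimum count of 10, TMM scaling, quasi-likelihood F test, Benjamini-Hochberg adjustment over all genes tested, called at an adjusted p under 0.05), each tissue fitted alone. CPM and FPKM were computed from the counts, the table's gene length and 1 TMM scaling of the 20 libraries, so ratios of FPKM can depart a little from fitted fold changes. DESeq2 1.42.0, limma 3.58.1, other scalings and filters, a replicate block and leaving out libraries served as alternatives. Log2 CPM for nearest genes used a prior count of 2. Floors of 3 counts cover counting error only. The procedure was tested on simulated data. All 9 members and the targeted gene are named, with up to 4 genes of smallest p per list, the 3 nearest genes of each called member and all further aquaporins. Members and lists were chosen with earlier results of these data known.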

Additional observations from a re-analysis of the deposited data

Results flagged for a closer look

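Among 28 groups of aquaporin values examined, 3 had a library far from the other 4, where chance gives about 1 in 20. In wild-type kidneys Aqp4 was at 5.38 FPKM in kidney 1, with the nearest other at 1.70 FPKM. In the same group Aqp8 was at 0.105 FPKM in kidney 3, from 4 counts, with the nearest other at 0.183 FPKM. In wild-type livers Aqp9 was at 110.4 FPKM in liver 3, with the nearest other at 125.6 FPKM. Besides these, the effect of the labelled genotype differed between kidney and liver by 4.50 on the log2 scale for Aqp7 and by 2.69 for Aqp8, by a test of the difference itself.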

How the results depend on the processing

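Aqp7 in liver and its difference between the tissues kept direction and call in every setting that tested them, with a liver log2 fold change of -4.84 to -4.68 over 7 settings (adjusted p up to 0.0146), and so did the tissue difference of Aqp8 (2.56 to 2.76, adjusted p up to 0.0181). Over all comparisons, of the recomputed fold changes of called members 204 kept the call and 19 lost it, and of those of members not called 285 stayed, 8 gained a call and 24 changed sign. Depth limits Aqp7 in liver and Aqp8 in kidney, which rest on few counts. The cause of the shifts that follow was not tested.

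In kidney 373 genes were called (65 higher, 308 lower). DESeq2 called 1151 (306 higher, 845 lower), limma-trend 237 from the fewer genes of the log2 FPKM table, the fit of all 20 libraries 948, and the fit without wild-type kidneys 1 and 3 590. Leaving out 1 kidney gave 99 to 921, the lowest without labelled knockout kidney 4 and the highest without wild-type kidney 6. The aquaporin called was 1, Aqp8, rather than 0, with DESeq2, with DESeq2 size factors in edgeR (adjusted p = 0.0488), with limma-trend, without mitochondrially encoded genes (adjusted p = 0.0495) and in the fit of all 20 libraries (adjusted p = 0.0377), and 0 to 2 were called with 1 kidney left out. Without scaling beyond library size Aqp4 was at -0.033, the split of calls was 38 higher and 358 lower, and the median of all genes moved to -0.16. Aqp2 was at 0.20 without wild-type kidneys 1 and 3 and between -0.24 and 0.40 with 1 kidney left out, turning positive without wild-type kidney 1 and without labelled knockout kidney 1 (0.03).

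In liver 893 genes were called (288 higher, 605 lower), against 1408 with DESeq2 (538 higher, 870 lower) and 575 to 913 with 1 liver left out. Of the 4 aquaporins in the log2 FPKM table limma-trend called 1, Aqp8, with Aqp11 at adjusted p = 0.0582. With 1 liver left out 1 to 3 aquaporins were called. Aqp11 was also lost in the fit of all 20 libraries (adjusted p = 0.296). Without scaling Aqp9 was at -0.073. Members near 0 changed sign with 1 liver left out: Aqp1 ranged over -0.21 to 0.19, Aqp4 over -0.17 to 0.23 and Aqp9 over -0.050 to 0.082.

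For the difference between the tissues 265 genes were called, against 611 with DESeq2, 176 without scaling and 165 to 487 with 1 library left out. Limma-trend called 1 aquaporin of the 4 it holds, and 2 to 3 were called with 1 library left out. Aqp4 was at -0.034 without scaling and at -0.046 to 0.91 with 1 library left out. Between wild-type tissues limma-trend called 2 of the 4 aquaporins it holds, with Aqp4 at 1.02 (adjusted p = 0.0852), and without scaling Aqp11 was at 0.34, the median of all genes moved to 0.69, and calls split into 8536 higher and 2166 lower in kidney, against 4921 and 4033 as reported.

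The title number as a replicate block moved the kidney calls to 909 and the liver calls to 296, with Aqp2 in kidney at 0.032, Aqp4 in liver at -0.38 and Aqp11 in liver no longer called (adjusted p = 0.249). Whether the numbers pair the samples was not settled. Same-numbered samples deviated together (r over 0.1) in 2 of 4 kidney pairs (r of 0.040 to 0.173) and 0 of 4 liver pairs (-0.036 to 0.020). A kidney and a liver of equal genotype and number did so in 3 of 10 pairs (-0.149 to 0.278). Samples of different numbers were not compared. The ratios to segment markers passed for 0 aquaporins in the paired test with the replicate block, where 4 pairs allow no exact p below 0.125, so that 0 was fixed by the design. They passed for 0 without wild-type kidneys 1 and 3, where Aqp11 was at -0.20, and for 0 to 4 with 1 kidney left out, where Aqp11 ranged over -0.051 to 0.28. With fewer kidneys the exact p also moves in larger steps.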
